A study of Homo sapiens with 9 samples.

Results

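The imprinted DLK1-DIO3 locus on human chromosome 14 was followed in SMS-KCNR neuroblastoma cells treated with simvastatin, alone or together with mevalonate. Its members were taken from a list of 55 genes of the interval from DLK1 to DIO3, and 54 of them had a probeset annotated with their name, of 14884 named genes in all. DIO3 was not matched. The 37519 probesets without a single gene symbol here were not searched. The 54 were 2 coding genes (DLK1 and RTL1), the long non-coding RNA MEG3, 10 proximal microRNA genes (MIR2392 to MIR370) and 41 distal microRNA genes (MIR379 to MIR656). Where a gene had more than 1 probeset, the one with the highest mean over the 9 arrays stood for it. That choice of probeset used no difference between groups, whereas the members were listed with earlier results of these data known.

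SMS-KCNR is an established human neuroblastoma cell line, so all arrays share 1 genetic background. The 3 groups of 3 arrays each were exposed for 30 hours to DMSO, to simvastatin at 5 µM, or to simvastatin at 5 µM together with mevalonate at 2 mM, and total RNA was labelled for whole-transcript Affymetrix arrays. Simvastatin inhibits HMG-CoA reductase, the enzyme that makes mevalonate, and mevalonate is given beside a statin to supply the product of the inhibited step. The 9 arrays hold no group given mevalonate alone, so the effect of mevalonate without simvastatin was not tested. Nothing in the labels says whether the replicates were separate cultures, so the p-values measure the spread between these samples, which may be technical.

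DLK1, RTL1 and DIO3 are expressed from the paternal chromosome, whereas MEG3 and the microRNAs of the locus come from the maternal chromosome. DLK1 is a transmembrane protein of the Notch ligand family, RTL1 derives from a retrotransposon and DIO3 is a deiodinase that inactivates thyroid hormone. All measured microRNAs of the locus but MIR2392 start beyond the start of MEG3 in its direction of transcription. The microRNAs are cut from long precursor RNAs, and the locus is known for its expression in neural and embryonic tissue. A mature microRNA recognises its targets mainly through its seed, bases 2 to 8 from the 5′ end.

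The mature sequences below belong to the microRNA genes on which the results turn, and are given 5′ to 3′ from RefSeq (GRCh38.p14) with the seed in capitals. The first set holds microRNAs whose genes fell when mevalonate was added, in every alternative processing in which they were tested:
hsa-miR-493-5p: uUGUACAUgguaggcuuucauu
hsa-miR-493-3p: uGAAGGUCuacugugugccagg
hsa-miR-136-5p: aCUCCAUUuguuuugaugaugga
hsa-miR-329-3p: aACACACCugguuaaccucuuu
hsa-miR-411-3p: uAUGUAACacgguccacuaacc
hsa-miR-495-3p: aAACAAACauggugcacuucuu
hsa-miR-496: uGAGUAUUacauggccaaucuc
hsa-miR-377-3p: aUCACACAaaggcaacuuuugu
hsa-miR-410-5p: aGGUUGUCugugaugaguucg

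The second set shows members that share a seed with each other or with one of the first set, so that the values of related sequences can be set side by side. The genes MIR329-1 and MIR329-2 give the same miR-329-3p, and MIR376A1 and MIR376A2 give the same miR-376a-3p:
hsa-miR-379-3p: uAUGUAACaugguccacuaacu
hsa-miR-494-5p: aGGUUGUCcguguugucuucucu
hsa-miR-323b-5p: aGGUUGUCcguggugaguucgca
hsa-miR-376a-3p: aUCAUAGAggaaaauccacgu
hsa-miR-376b-3p: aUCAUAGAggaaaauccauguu
hsa-miR-300: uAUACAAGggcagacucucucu
hsa-miR-381-3p: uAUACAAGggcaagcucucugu
hsa-miR-1185-5p: aGAGGAUAcccuuuguauguu
hsa-miR-487a-5p: gUGGUUAUcccugcuguguucg
hsa-miR-487b-5p: gUGGUUAUcccuguccuguucg
hsa-miR-539-3p: aUCAUACAaggacaauuucuuu
hsa-miR-485-3p: gUCAUACAcggcucuccucucu

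RefSeq held a mature sequence for 51 of the 51 microRNA members, 93 arms in all. Among them, 13 seeds were shared by more than 1 gene, over 22 genes, and 29 genes shared no seed within the locus. The probesets measured RNA of a microRNA gene, and the labels and files do not say whether their probes bind the precursor, the hairpin or a mature arm.

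The promoter window of MEG3 is shown because MEG3 changed and because transcription through the maternal microRNAs starts from its side of the locus. It runs from 250 bases before to 50 bases after a RefSeq start of MEG3 (1 of 3 windows held for the gene), at chr14:100825858-100826157 on the + strand of GRCh38.p14. Capitals mark the motifs found:
MEG3 promoter window: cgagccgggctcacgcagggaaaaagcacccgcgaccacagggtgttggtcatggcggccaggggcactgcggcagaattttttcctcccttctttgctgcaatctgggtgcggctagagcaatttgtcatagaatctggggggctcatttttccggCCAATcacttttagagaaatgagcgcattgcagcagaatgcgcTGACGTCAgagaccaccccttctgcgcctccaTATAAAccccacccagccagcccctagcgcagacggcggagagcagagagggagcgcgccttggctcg
The searches covered both strands for 3 motifs that do not overlap here. TGACGTCA, the letters of the cyclic AMP response element, began 50 bases before the start and occurred in 1.85% of 35116 promoter windows of this length. CCAAT began 93 bases before the start and occurred in 34.6% of windows, and TATAAA began 18 bases before it and occurred in 11.5%. These matches describe the sequence only.

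The deposited values are log2 signals, and their array medians lay between 5.17 and 5.21. Arrays of 1 group correlated over the 14884 named genes at r between 0.994 and 0.996, and arrays of different groups at r between 0.990 and 0.996. Among 14 markers of noradrenergic neuroblastoma, 11 were measured and all 11 lay above the median of all probesets, 5.19. Their mean per array was 10.08 to 10.10 with DMSO, 9.72 to 9.74 with simvastatin and 9.98 to 10.03 with simvastatin plus mevalonate. Of 5 measured Schwann and glial markers 3, of 6 mesenchymal markers 5, and of 4 blood and endothelial markers 1 (CD68) lay above that median. The means of these 3 lists stayed within 5.04 to 5.21, 7.28 to 7.45 and 5.16 to 5.54. Single markers changed within them (limma): the mesenchymal TWIST1 fell by 0.49 ± 0.05 (log2, SE) with simvastatin and rose by 0.59 ± 0.05 with mevalonate added, and FN1 fell by 0.38 ± 0.06 and rose by 0.34 ± 0.06. CD68 rose by 0.48 ± 0.09 and fell by 0.38 ± 0.09, and its fall was lost when simvastatin replicate 1, simvastatin replicate 2, or replicate 1 or 3 of simvastatin plus mevalonate was left out. The mesenchymal SNAI2 went the other way and rose by 0.20 ± 0.05 with simvastatin (limma adjusted p = 0.0323), a call lost in 10 of 18 alternatives. Of the 6 mesenchymal markers, 4 had changes above 0 with simvastatin. Of the 11 noradrenergic markers 7 fell with simvastatin and 6 rose with mevalonate, against 7.38% and 5.31% of all genes. The part of any such shift in the results on the locus was not tested. In these bulk cultures fewer cells of a type and less RNA per cell cannot be told apart.

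Adding mevalonate to simvastatin lowered RNA across much of the locus. Relative to simvastatin alone, 24 of the 54 measured members (44.4%) fell and 0 rose at an adjusted p under 0.05 (limma, Benjamini-Hochberg over all named genes), against 5.72% of all genes that fell and 5.31% that rose. They were DLK1, MEG3, 2 of 10 proximal and 20 of 41 distal microRNAs. At an unadjusted p under 0.05, 34 members differed in either direction, against 3535 of all 14884 genes. The median change was -0.48 (log2) over the distal microRNAs and -0.21 over the proximal ones, against 0.0038 over all 14884 genes.

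DLK1 was 7.79, 7.88 and 7.90 (log2) on the DMSO arrays, 7.77, 7.77 and 7.83 with simvastatin, and 7.36, 7.54 and 7.50 with simvastatin plus mevalonate. The DMSO and simvastatin arrays overlapped, and all 3 arrays with mevalonate lay below both. DLK1 fell by 0.32 ± 0.06 (log2, SE; 3 against 3 arrays) when mevalonate was added, 1.25-fold, with a limma adjusted p of 0.00833.

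MEG3, whose RNA has growth-restraining functions in several cell types, was 8.49, 8.56 and 8.47 with DMSO, 8.23, 8.28 and 8.35 with simvastatin, and 7.80, 7.64 and 7.95 with simvastatin plus mevalonate. The 3 groups did not overlap and stood in that order. MEG3 fell by 0.49 ± 0.08 (log2, SE) between simvastatin and simvastatin plus mevalonate, 1.40-fold, with a limma adjusted p of 0.00456. A second MEG3 probeset, not used in the fit, differed by -0.41 in the same comparison, and its 3 arrays with mevalonate (7.85, 7.75 and 7.72) lay below all 6 others.

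RTL1 was 6.51, 6.29 and 6.48 with DMSO, 6.51, 6.51 and 6.66 with simvastatin, and 6.62, 6.51 and 6.47 with simvastatin plus mevalonate. The 3 groups overlapped, and the change with mevalonate was -0.03 ± 0.07 (log2, SE; limma adjusted p = 0.864). It turned to 0.0205 without simvastatin replicate 3 and to 0.0033 without simvastatin plus mevalonate replicate 3. A second RTL1 probeset differed by -0.25. RTL1 lies antisense to several proximal microRNAs (MIR431, MIR127, MIR432 and MIR136), and the strand its probesets read is not stated.

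**Figure D1:**
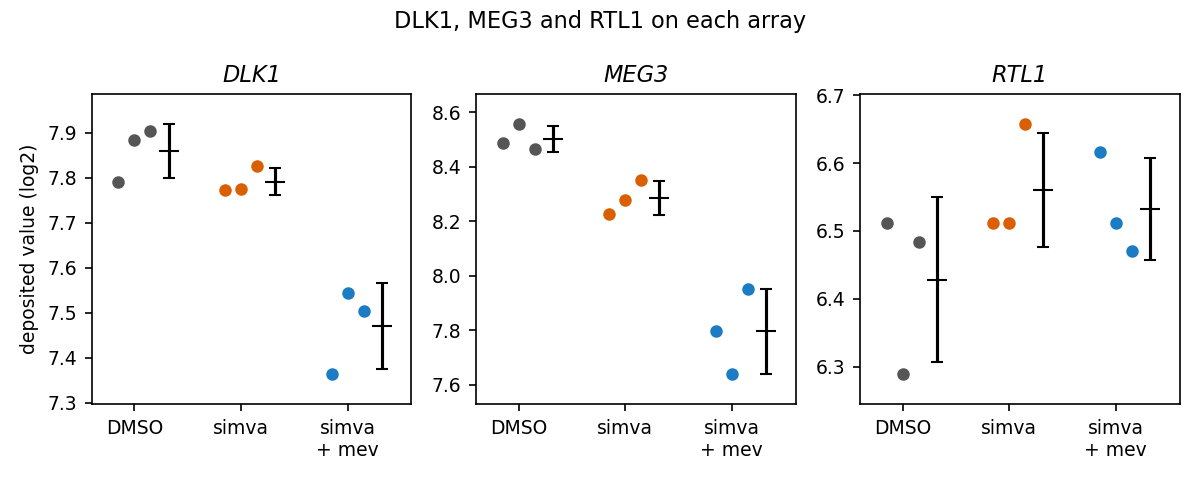
Deposited log2 value (vertical axis) of DLK1, MEG3 and RTL1 on each of the 9 arrays, with 1 point per array and the mean ± SD of the 3 arrays of a group beside them; simva is simvastatin and simva + mev is simvastatin plus mevalonate. For DLK1 (7.36 to 7.54) and MEG3 (7.64 to 7.95) the 3 arrays with mevalonate lie below all others, while the RTL1 groups overlap.

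Among the proximal microRNAs, MIR493 changed most. It was 5.58, 5.57 and 5.53 with DMSO, 6.30, 6.20 and 6.03 with simvastatin, and 4.69, 4.48 and 5.04 with simvastatin plus mevalonate. The 3 groups were fully apart, highest with simvastatin and lowest with mevalonate added. It fell by 1.44 ± 0.13 (log2, SE) with mevalonate, 2.72-fold, at a limma adjusted p of 0.000275.

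MIR136 was 4.76, 4.57 and 4.76 with DMSO, 5.13, 4.99 and 5.43 with simvastatin, and 4.58, 4.63 and 4.30 with simvastatin plus mevalonate. It fell by 0.68 ± 0.13 (log2, SE), 1.60-fold (limma adjusted p = 0.0103), to arrays that overlapped those of DMSO. MIR370 and MIR770 also lay lower with mevalonate on all 3 arrays, but their changes of -0.44 ± 0.13 (adjusted p = 0.0717) and -0.21 ± 0.07 (adjusted p = 0.128, both limma) did not pass. MIR370 was 5.94, 5.94 and 6.32 with DMSO, 6.27, 5.94 and 5.92 with simvastatin and 5.48, 5.64 and 5.70 with mevalonate added.

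The other 6 proximal microRNAs did not pass the test. MIR127, the proximal microRNA with the brightest probeset, was 7.30, 7.18 and 7.11 with simvastatin and 7.0015, 6.91 and 6.98 with mevalonate added, a change of -0.23 ± 0.12 (log2, SE; limma adjusted p = 0.275). MIR2392 and MIR431 had changes above 0, of 0.18 ± 0.10 and 0.09 ± 0.10. MIR665 and MIR432 had changes of -0.17 ± 0.17 and -0.22 ± 0.17, and MIR337 changed by -0.01 ± 0.05 with the same value on 5 of 9 arrays.

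**Figure D2:**
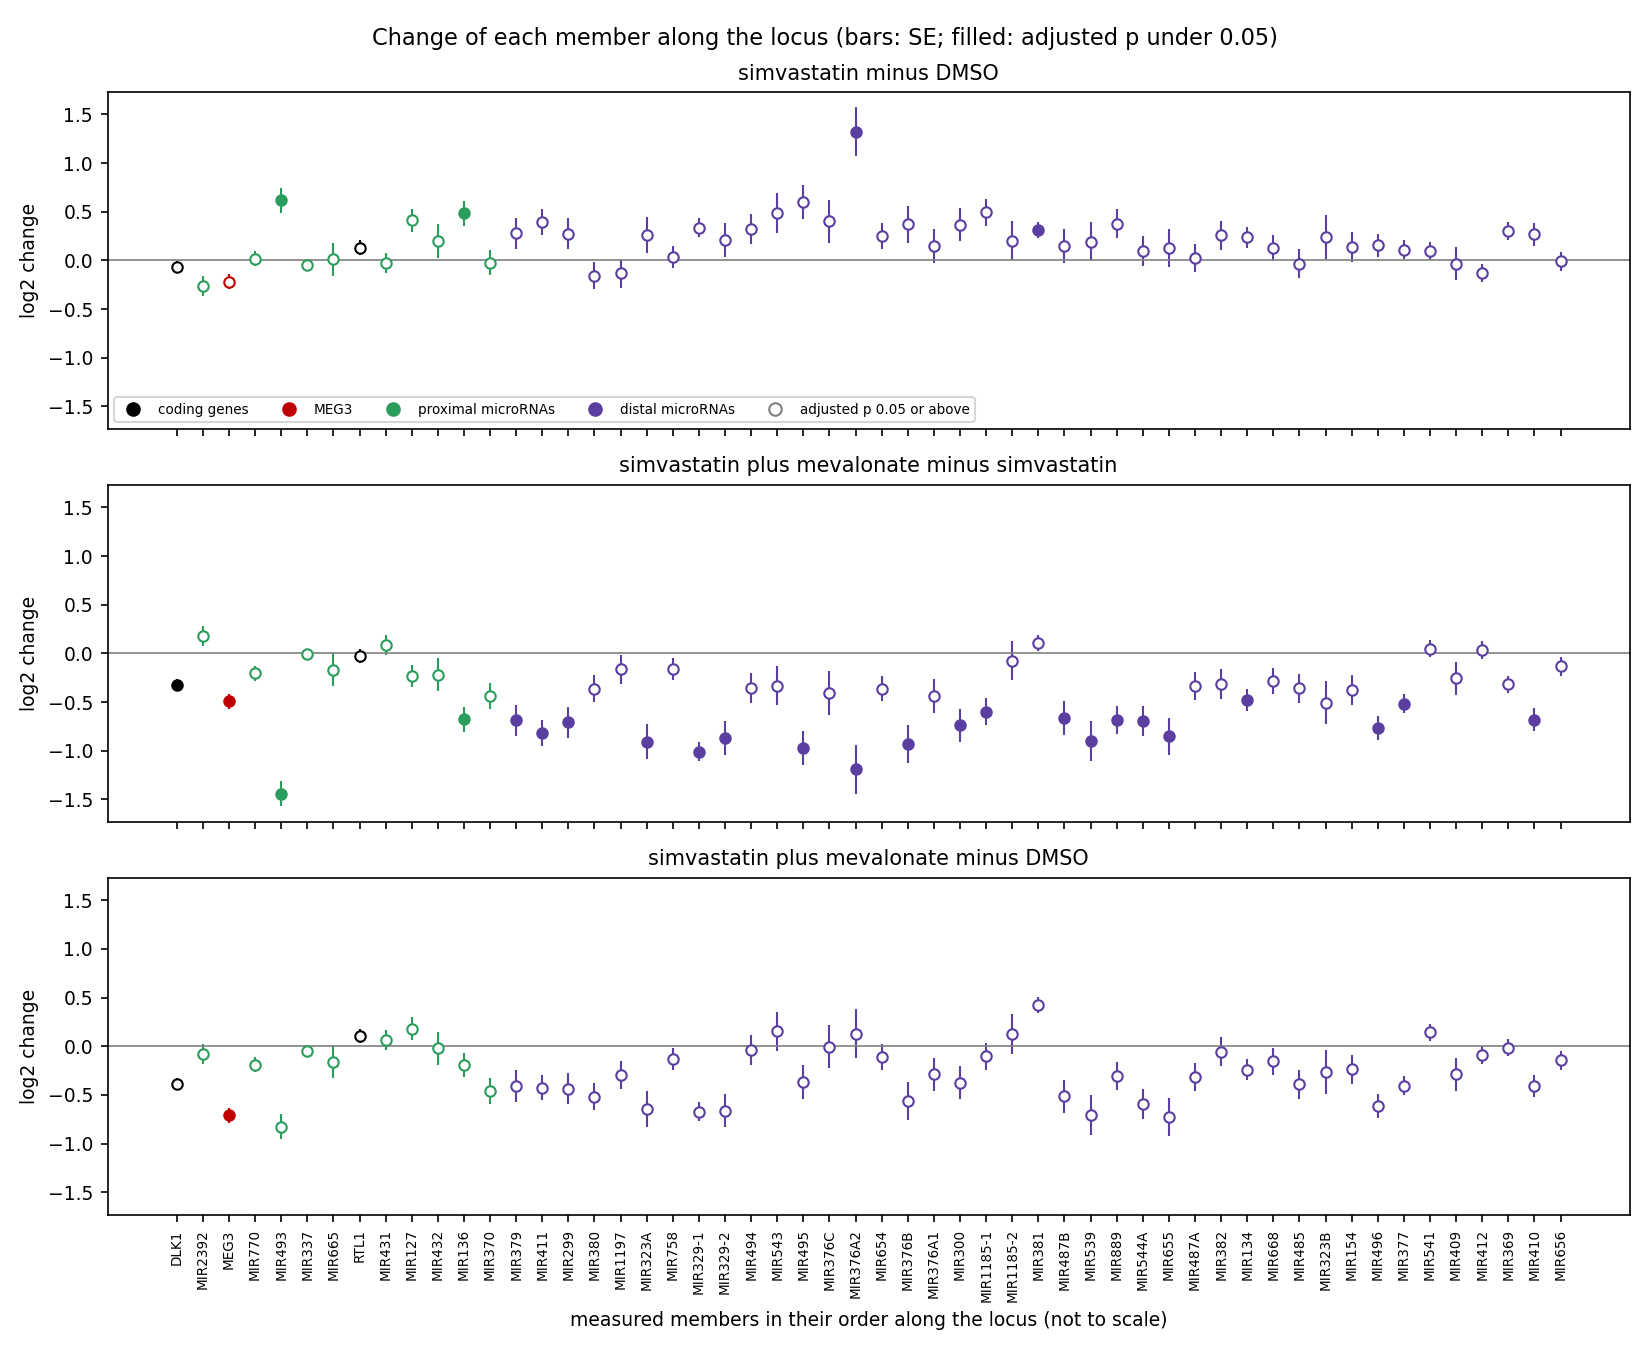
Log2 change of each of the 54 measured members in their order along the locus (horizontal axis, not to scale) in the 3 comparisons, with the SE of the limma fit as bars and filled points for an adjusted p under 0.05. With mevalonate added to simvastatin, 24 points are filled and all lie below 0. For simvastatin minus DMSO 4 are filled, all above 0. For simvastatin plus mevalonate minus DMSO 1 is filled, MEG3, and it lies below 0.

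In the distal cluster, MIR329-1 had the brightest probeset and the smallest p. It was 7.33, 7.36 and 7.32 with DMSO, 7.80, 7.72 and 7.50 with simvastatin, and 6.80, 6.49 and 6.70 with simvastatin plus mevalonate. The 3 groups did not overlap, and MIR329-1 fell by 1.01 ± 0.10 (log2, SE), 2.02-fold, when mevalonate was added (limma adjusted p = 0.000358).

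MIR496 was 3.94, 3.69 and 3.81 with DMSO, 4.24, 3.79 and 3.88 with simvastatin, and 3.32, 3.13 and 3.15 with simvastatin plus mevalonate. MIR411 was 2.77, 2.71 and 2.58, then 3.13, 2.77 and 3.35, then 2.17, 2.32 and 2.29 in the same 3 groups. In both genes the arrays with mevalonate lay below all 6 others, and DMSO and simvastatin overlapped. Their signal was low, with 20.2% of all probesets at a lower mean than MIR496 and 7.81% at a lower mean than MIR411. MIR496 fell by 0.77 ± 0.12 (log2, SE; adjusted p = 0.0045) and MIR411 fell by 0.82 ± 0.13 (adjusted p = 0.00488, both limma), 1.70-fold and 1.77-fold.

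MIR410 was 3.07, 3.39 and 3.05 with DMSO, 3.30, 3.65 and 3.37 with simvastatin, and 2.74, 2.86 and 2.68 with simvastatin plus mevalonate. MIR495 was 4.42, 4.84 and 4.73, then 5.36, 5.28 and 5.15, then 4.23, 3.97 and 4.68 in these groups. The simvastatin arrays of MIR495 lay above all 6 others, and those of MIR410 overlapped DMSO. The signal of MIR410 was low, with 12.7% of all probesets at a lower mean. MIR410 fell by 0.68 ± 0.12 (log2, SE; adjusted p = 0.00666) and MIR495 fell by 0.97 ± 0.18 (adjusted p = 0.00898, both limma), 1.60-fold and 1.96-fold.

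**Figure D3:**
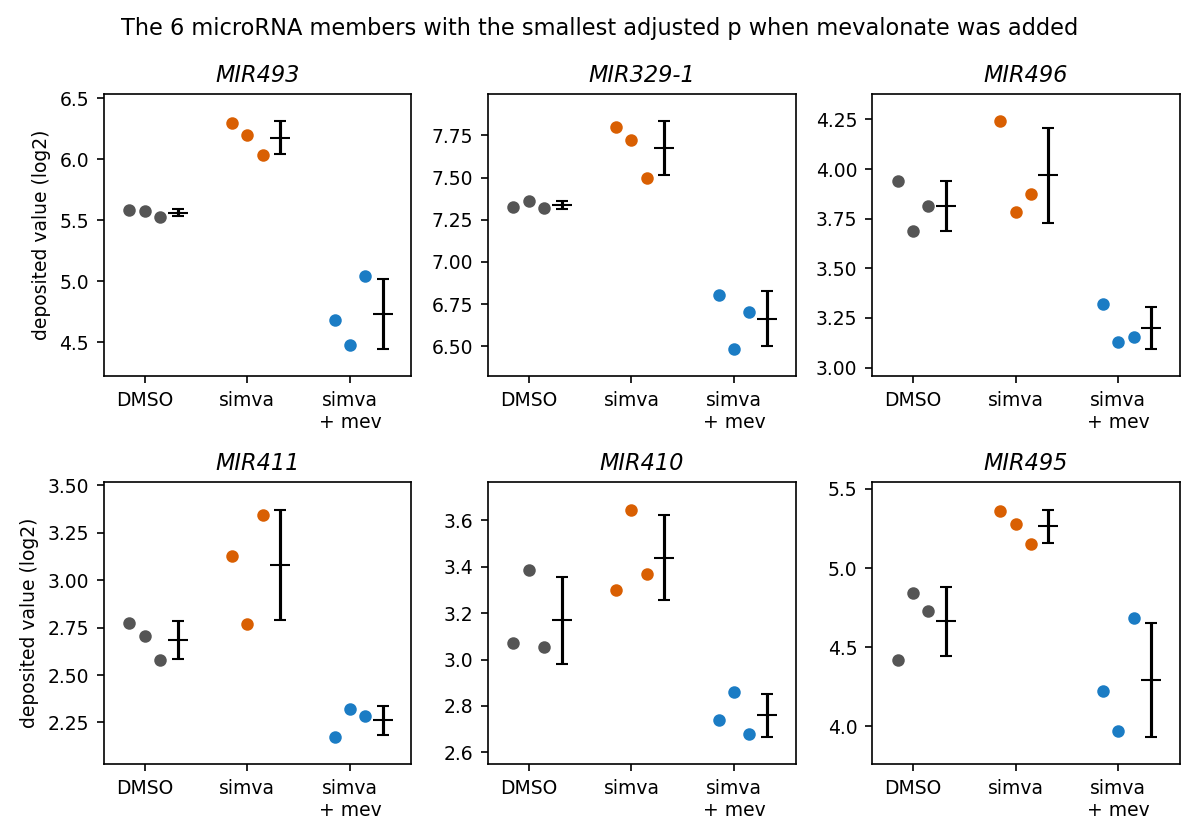
Deposited log2 value (vertical axis, scaled per gene) of the 6 microRNA members with the smallest adjusted p when mevalonate was added, with 1 point per array and the mean ± SD of 3 arrays; simva is simvastatin and simva + mev is simvastatin plus mevalonate. In each of the 6 the simvastatin plus mevalonate arrays lie below all simvastatin arrays, as in MIR493 with 4.48 to 5.04 against 6.03 to 6.30.

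MIR377 was 6.07, 6.32 and 6.25 with DMSO, 6.51, 6.18 and 6.28 with simvastatin, and 5.90, 5.81 and 5.71 with simvastatin plus mevalonate, and it fell by 0.52 ± 0.10 (log2, SE; limma adjusted p = 0.0112) from simvastatin. MIR376A2 was 3.58, 3.50 and 3.73 with DMSO, 5.58, 4.77 and 4.42 with simvastatin, and 3.54, 3.77 and 3.89 with simvastatin plus mevalonate. It fell by 1.19 ± 0.25 (log2, SE; limma adjusted p = 0.0184), 2.29-fold, to arrays that overlapped those of DMSO. MIR376A2 thus had the largest fall of the distal members and also the largest spread within the simvastatin group among the members described here.

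The remaining 12 distal microRNAs that passed were MIR379, MIR299, MIR323A, MIR376B, MIR300, MIR1185-1, MIR487B, MIR539, MIR889, MIR544A, MIR655 and MIR134, together with MIR329-2 described with its copy. Their adjusted p-values (limma) ran from 0.0149 for MIR323A to 0.0431 for MIR487B. MIR323A fell by 0.91 ± 0.18, MIR539 by 0.90 ± 0.20, MIR655 by 0.85 ± 0.19 and MIR134 by 0.48 ± 0.11 (log2, SE). MIR134 is known for a role in the dendrites of neurons. In all 12 the 3 arrays with mevalonate lay below the 3 with simvastatin.

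A further 21 distal microRNAs did not pass the test, and 18 of them had changes below 0. MIR369 came closest, at -0.32 ± 0.09 (log2, SE; limma adjusted p = 0.0567). MIR654 and MIR382, which have bright probesets, had changes of -0.36 ± 0.13 (adjusted p = 0.138) and -0.32 ± 0.15 (adjusted p = 0.25, both limma). The 3 with changes above 0 were MIR381 (0.11 ± 0.08), MIR541 (0.05 ± 0.09) and MIR412 (0.03 ± 0.09).

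The groups of MIR541 and MIR412 overlapped on all sides. MIR541 was 6.11, 5.96 and 6.16 with DMSO, 6.33, 5.996 and 6.20 with simvastatin, and 6.16, 6.27 and 6.23 with simvastatin plus mevalonate. MIR412 was 6.38, 6.39 and 6.56, then 6.22, 6.39 and 6.34, then 6.38, 6.17 and 6.49. Both lie in the interval between MIR377 and MIR410, which fell.

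The arrays were apart for more members than passed. In 31 of 54 members all 3 arrays with simvastatin plus mevalonate lay below all 3 with simvastatin, and in 0 above, against 13.7% and 13.6% of all genes. Of the 41 distal microRNAs this held for 24, and of the 10 proximal ones for 5.

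The count of 24 dropped to 14 without simvastatin plus mevalonate replicate 1 and to 15 without simvastatin replicate 2, and to 9 of the 25 members tested when genes below the median of all probesets were left out. Of the 24, 11 passed in every alternative in which they were tested, 17 or 18 each (DLK1, MEG3, MIR136, MIR329-1, MIR329-2, MIR377, MIR410, MIR411, MIR493, MIR495 and MIR496), and no member called here changed direction.

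The 13 calls lost somewhere were all distal microRNAs. MIR487B lost its call without any 1 of the DMSO replicates (adjusted p 0.0592 to 0.0687), which enter only through the shared estimate of the spread. Without simvastatin replicate 1 the calls of MIR1185-1, MIR134, MIR299, MIR300, MIR379, MIR487B, MIR539, MIR544A and MIR655 were lost, and without simvastatin replicate 2 those of MIR1185-1, MIR299, MIR300, MIR323A, MIR376B, MIR487B, MIR539, MIR544A and MIR655. Without simvastatin replicate 3 the calls of MIR134, MIR376B, MIR379 and MIR544A were lost.

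Among the simvastatin plus mevalonate arrays, leaving out replicate 1 ended the calls of MIR134, MIR299, MIR300, MIR323A, MIR376A2, MIR376B, MIR379, MIR539, MIR544A and MIR655. Leaving out replicate 2 ended those of MIR1185-1, MIR299, MIR376A2, MIR376B, MIR379, MIR487B, MIR539 and MIR889, and leaving out replicate 3 those of MIR1185-1, MIR134, MIR300, MIR487B, MIR544A, MIR655 and MIR889. Across these 6 settings the lost calls had limma adjusted p-values between 0.0504 and 0.125.

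MicroRNA genes outside the listed members were measured on the same arrays. Of these 1021, 23 fell (2.25%) and 29 rose when mevalonate was added (limma), with a median change of -0.0001 (log2). Of the 51 listed microRNA members, 22 fell (43.1%). The members thus held 22 of the 45 microRNA genes called lower (48.9%). MIR1193, a further RNA of the interval described below, is not a listed member and also fell. The imprinted microRNA cluster on chromosome 19, C19MC, had 43 measured genes, of which 1 (MIR520G) fell and 0 rose, with a median of -0.02 and 5 genes at an unadjusted p under 0.05. Most C19MC probesets were dim, with means below the median of all probesets (5.19), MIR520G at 3.89 among them. Whether low signal held their changes small was not tested.

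**Figure D4:**
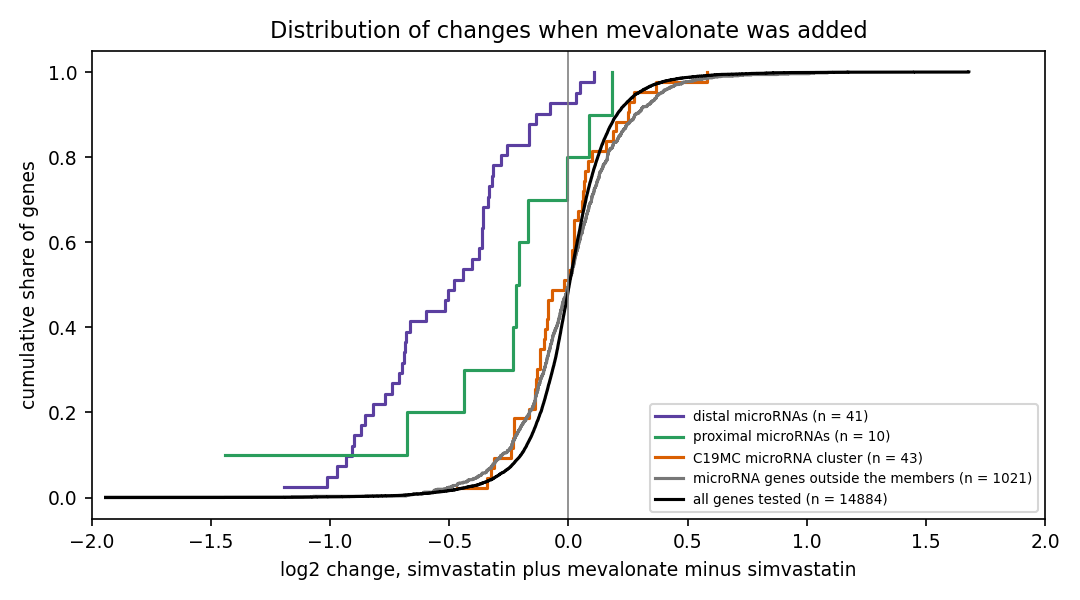
Cumulative share of genes (vertical axis) by log2 change, simvastatin plus mevalonate minus simvastatin (horizontal axis). Curves are drawn for the distal and proximal microRNAs, the C19MC cluster, all microRNA genes outside the listed members and all genes tested. The distal curve lies left of 0 for most of its length, with a median of -0.48, while the C19MC curve (median -0.02) and that of the other microRNA genes (median -0.0001) cross near 0.

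The classes can also be followed array by array, as the median over a class of each gene's deviation from its own mean over 9 arrays. For the distal microRNAs this was 0.01, 0.00 and 0.00 (log2) with DMSO, 0.24, 0.26 and 0.19 with simvastatin, and -0.26, -0.27 and -0.26 with simvastatin plus mevalonate. For the proximal microRNAs it was 0.02, 0.15 and 0.06 with simvastatin and -0.12, -0.04 and -0.13 with simvastatin plus mevalonate. In both classes the simvastatin arrays were highest and those with mevalonate lowest, and DMSO lay between. The C19MC cluster stayed between -0.07 and 0.03 and the microRNA genes outside the listed members between -0.012 and 0.0093 on the 9 arrays.

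**Figure D5:**
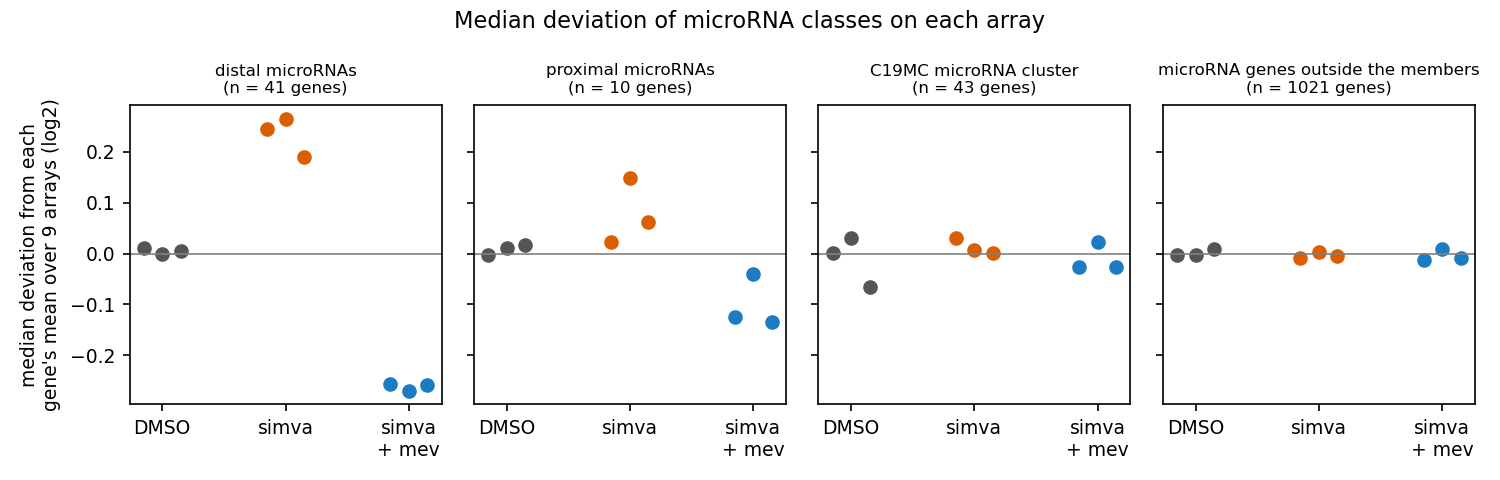
Median over a class of microRNA genes of each gene's deviation from its own mean over 9 arrays (vertical axis, log2), with 1 point per array; simva is simvastatin and simva + mev is simvastatin plus mevalonate. The distal class is split into 3 levels, near 0.00 with DMSO, 0.19 to 0.26 with simvastatin and -0.27 to -0.26 with mevalonate added. The 1021 microRNA genes outside the listed members stay near 0 on all arrays.

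Simvastatin alone raised few members of the locus. Relative to DMSO, 4 of 54 (7.41%) rose and 0 fell (limma adjusted p under 0.05), against 5.98% and 7.38% of all genes, so the share that rose was near the background. The 4 were MIR493 and MIR136 of the proximal class and MIR376A2 and MIR381 of the distal class. At an unadjusted p under 0.05, 15 members and 3805 of all 14884 genes differed. This comparison shares the simvastatin arrays with the previous one, so their values stand side by side and are not independent.

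MIR376A2 rose by 1.32 ± 0.25 (log2, SE), 2.50-fold, at a limma adjusted p of 0.00985, and passed in all 17 alternatives in which it was tested. MIR493 rose by 0.62 ± 0.13 (1.53-fold; adjusted p = 0.0158, limma) and MIR136 by 0.48 ± 0.13 (1.40-fold; adjusted p = 0.0388). In these 3 genes the simvastatin arrays given above lay above all DMSO arrays.

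MIR381 was 2.81, 2.97 and 2.95 with DMSO, 3.11, 3.22 and 3.35 with simvastatin, and 3.44, 3.35 and 3.21 with simvastatin plus mevalonate. It rose by 0.32 ± 0.08 (log2, SE; 1.24-fold; limma adjusted p = 0.0372). It was the one member of the 4 whose arrays with mevalonate stayed in the range of the simvastatin arrays or above it. The signal of MIR381 was low, with 13.1% of all probesets at a lower mean.

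The calls of MIR136 and MIR381 were both lost without any 1 of the DMSO replicates, without simvastatin replicate 3 or without simvastatin plus mevalonate replicate 2 (limma adjusted p 0.0535 to 0.122). MIR493 lost its call without DMSO replicate 3 or simvastatin replicate 1 (adjusted p 0.0542 and 0.0544), MIR136 also without simvastatin replicate 1 (0.0756) or simvastatin plus mevalonate replicate 1 (0.0603), and MIR381 also without simvastatin replicate 2 (0.0874). The count of 4 dropped to 1 without DMSO replicate 3 and to 2 without DMSO replicate 2.

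Changes that did not pass were mostly above 0 in the distal cluster. The median change there was 0.24 (log2), with 35 of 41 above 0. The median was 0.0052 over all genes and also over the microRNA genes outside the listed members. MIR495 was 0.60 ± 0.18 higher (adjusted p = 0.0593), MIR1185-1 0.49 ± 0.14 higher (0.0532), MIR127 0.41 ± 0.12 higher (0.053) and MIR329-1 0.34 ± 0.10 higher (0.0548, all limma). Each of these 4 had its simvastatin arrays above its DMSO arrays. The proximal median was 0.02, and -0.0083 at the lowest and 0.11 at the highest over the alternatives.

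MEG3 and DLK1 had changes below 0 that did not pass. MEG3 differed by -0.22 ± 0.08 (log2, SE; limma adjusted p = 0.115), with its simvastatin arrays below its DMSO arrays, and it passed in 1 of the alternatives (adjusted p = 0.045). DLK1 differed by -0.07 ± 0.06 (adjusted p = 0.522) and RTL1 by 0.13 ± 0.07 (adjusted p = 0.318). In all, 11 members had simvastatin arrays above all DMSO arrays and 1, MEG3, below, against 13.9% and 14.7% of all genes.

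Cells given both compounds were also set against DMSO, which asks how far their levels lay from those of vehicle-treated cells. Across all genes few differed, 0.0739% of those tested: 6 (0.0403%) were lower and 5 (0.0336%) higher at a limma adjusted p under 0.05. MEG3 was 1 of the 6 and fell by 0.71 ± 0.08 (log2, SE), 1.63-fold, at an adjusted p of 0.0222. It was the only member called, and 0 members were higher.

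The MEG3 call was lost in 10 of the 18 alternatives, among them leaving out any 1 of the DMSO replicates, simvastatin replicate 2, or simvastatin plus mevalonate replicate 1 or 2 (adjusted p 0.0592 to 0.128). Its direction held in all of them. Its second probeset differed by -0.54, with 8.36, 8.26 and 8.33 on the DMSO arrays.

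At an unadjusted p under 0.05, 22 of 54 members differed from DMSO, against 1635 of 14884 genes. In 21 members the 3 arrays with both compounds lay below the 3 with DMSO, and in 1 (MIR381) above, against 9.22% and 7.24% of all genes. The distal median was -0.30 (log2), with 36 of 41 below 0, the proximal median was -0.12, and the median over all genes was 0.0004. DLK1 differed by -0.39 ± 0.06 (log2, SE; limma adjusted p = 0.0587), MIR493 by -0.83 ± 0.13 (0.0677) and MIR329-1 by -0.67 ± 0.10 (0.0587). RTL1 differed by 0.10 ± 0.07 (adjusted p = 0.651), and by -0.0359 with the mean of its probesets.

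Other members lay nearer to DMSO when both compounds were given. MIR376A2 differed from DMSO by 0.13 ± 0.25 (log2, SE; limma adjusted p = 0.886), MIR136 by -0.19 ± 0.13 (adjusted p = 0.619) and MIR127 by 0.18 ± 0.12 (adjusted p = 0.62). The arrays of both groups overlapped in each of the 3. MIR381 stood at 0.42 ± 0.08 (adjusted p = 0.112).

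Several microRNAs have more than 1 gene copy in the cluster, each with a probeset of its own. MIR329-1 and MIR329-2 are identical at 79 of 84 aligned hairpin positions (94%). Gaps count as non-identical positions in these shares, so hairpins of unequal recorded length score lower. MIR329-2 was 5.16, 4.95 and 5.07 with DMSO, 5.63, 5.18 and 4.99 with simvastatin, and 4.63, 4.14 and 4.42 with simvastatin plus mevalonate. It fell by 0.87 ± 0.17 (log2, SE; limma adjusted p = 0.0142), beside the fall by 1.01 ± 0.10 of MIR329-1, and near-identical copies may share probe signal.

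MIR1185-1 and MIR1185-2 are identical at 84 of 86 positions (97.7%). MIR1185-1 was 5.02, 4.87 and 4.63 with DMSO, 5.32, 5.51 and 5.17 with simvastatin, and 4.99, 4.63 and 4.58 with simvastatin plus mevalonate, and fell by 0.60 ± 0.14 (limma adjusted p = 0.0281). MIR1185-2 was 5.36, 4.95 and 4.75, then 5.25, 4.96 and 5.46, then 4.87, 5.11 and 5.46, with groups that overlapped and a change of -0.08 ± 0.20 (adjusted p = 0.865). The difference between the copies was not tested.

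In the miR-376 family, MIR376A2 and MIR376B fell. MIR376B was 5.07, 5.15 and 5.42 with DMSO, 5.23, 5.71 and 5.82 with simvastatin, and 4.39, 4.58 and 4.99 with simvastatin plus mevalonate, and it fell by 0.93 ± 0.19 (log2, SE; limma adjusted p = 0.0164). MIR376A1 and MIR376C did not pass, at -0.44 ± 0.17 (adjusted p = 0.161) and -0.41 ± 0.22 (adjusted p = 0.318). MIR376A1 and MIR376A2 carry the same miR-376a-3p and are identical at 60 of 80 aligned hairpin positions (75%, gaps included, for hairpins of 68 and 80 bases).

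MIR300 and MIR381 share a seed, and their difference was not tested. MIR300 was 3.40, 3.19 and 3.27 with DMSO, 3.80, 3.93 and 3.22 with simvastatin, and 2.90, 3.07 and 2.77 with simvastatin plus mevalonate, and fell by 0.74 ± 0.17 (log2, SE; limma adjusted p = 0.0257), whereas MIR381 changed by 0.11 ± 0.08 (adjusted p = 0.491). MIR379 and MIR411, which share the 3p seed, both fell. Their hairpins, of 67 and 96 bases, are identical at 53 of 99 aligned positions, gaps included (53.5%). MIR487B fell by 0.67 ± 0.17 and its near copy MIR487A (79.8% identical) changed by -0.34 ± 0.14 (adjusted p = 0.2, limma), and MIR539 fell while MIR485, of the same 3p seed, changed by -0.36 ± 0.15 (adjusted p = 0.179).

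Of the genes that share a seed within the locus 11 of 22 fell with mevalonate, and of those that share none 11 of 29. Along the locus, 11 of the first 20 distal genes and 9 of the remaining 21 fell. Of the 26 distal genes with a mean below the median of all probesets, 15 fell, and of the 15 above it, 5. The dim probesets thus held most of the falls. Of the 54 members, 20 (37%) had an identical value on at least 2 arrays, as had 57.4% of all genes. The median SD within groups was 0.21 (log2) over the microRNA members and 0.09 over all genes.

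Other RNAs of the interval were measured in part. Of 41 listed small nucleolar RNAs 0 were matched to a named probeset, and of 6 further non-coding RNAs 3 were; unnamed probesets were not searched. MIR1193 was 4.16, 3.99 and 4.37 with DMSO, 4.46, 4.08 and 4.77 with simvastatin, and 3.79, 3.63 and 3.94 with simvastatin plus mevalonate, and it fell by 0.65 ± 0.17 (log2, SE; limma adjusted p = 0.0464) with mevalonate. That call was lost without any 1 of 8 arrays (adjusted p 0.0539 to 0.143), and it held without simvastatin replicate 2.

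Of 12 listed genes flanking the locus 7 were measured. With simvastatin 2 of them (28.6%) rose, and with mevalonate the same 2, BEGAIN and WARS1, fell. Of all genes 5.98% rose and 7.38% fell with simvastatin, and 5.31% rose and 5.72% fell with mevalonate added. These shares also serve as background for the lists that follow. BEGAIN was 5.32, 5.47 and 5.26 with DMSO, 5.87, 5.92 and 5.78 with simvastatin, and 5.05, 5.07 and 5.47 with simvastatin plus mevalonate. It rose by 0.51 ± 0.11 (log2, SE; limma adjusted p = 0.0198) and then fell by 0.66 ± 0.11 (adjusted p = 0.00695). The rise was lost when DMSO replicate 1, DMSO replicate 3, simvastatin replicate 1 or simvastatin replicate 2 was left out (adjusted p 0.0561 to 0.0712).

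WARS1, a tryptophanyl-tRNA synthetase, rose by 0.46 ± 0.05 with simvastatin (adjusted p = 0.000584) and fell by 0.34 ± 0.05 with mevalonate (adjusted p = 0.00338, limma). With the mean of its 2 probesets the changes were 0.20 and -0.12, and neither passed.

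Among 19 listed genes of microRNA processing 9 were measured. With simvastatin 2 rose (XPO5 and DGCR8, 22.2%) and 1 fell (LIN28B, 11.1%), and with mevalonate added 1 rose (LIN28B, 11.1%). LIN28B, which blocks the maturation of let-7 microRNAs, was 8.30, 8.30 and 8.35 with DMSO, 7.55, 7.50 and 7.55 with simvastatin, and 8.05, 8.14 and 8.04 with simvastatin plus mevalonate. It fell by 0.78 ± 0.04 and then rose by 0.54 ± 0.04 (log2, SE). XPO5, which exports microRNA precursors from the nucleus, rose by 0.19 ± 0.04. The DGCR8 call was lost without any 1 of 8 arrays, all but simvastatin plus mevalonate replicate 3.

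Of 20 listed imprinting factors and regulators of the locus 16 were measured. With simvastatin 1 rose (6.25%) and 5 fell (31.2%), and with mevalonate 3 rose (18.8%) and 1 fell (6.25%). MEF2A, a transcription factor known to act on the locus in muscle, rose by 0.70 ± 0.06 with simvastatin and fell by 0.65 ± 0.06 with mevalonate (log2, SE). CREB1, a factor that binds the cyclic AMP response element, fell by 0.27 ± 0.04 with simvastatin and rose by 0.20 ± 0.04 with mevalonate (limma adjusted p = 0.0233). TET2, a methylcytosine dioxygenase, fell by 0.35 ± 0.04 and rose by 0.30 ± 0.04. The count of 3 dropped to 1 without simvastatin replicate 2 or simvastatin plus mevalonate replicate 2 or 3. TET1 and CREB1 were among the losses.

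Of 30 genes listed as imprinted at other loci 18 were measured. The imprinting of each was not checked, and IGF2BP3 is among them. With simvastatin 3 fell (16.7%) and 0 rose, and with mevalonate 2 rose (11.1%) and 0 fell (limma). NNAT fell by 0.95 ± 0.06 with simvastatin and rose by 0.83 ± 0.06 with mevalonate, and PEG10 fell by 0.45 ± 0.05 and rose by 0.30 ± 0.05 (log2, SE). At an unadjusted p under 0.05 the list held 4 genes with simvastatin and 3 with mevalonate. The third fall, NTM, was lost in 6 of the 9 settings that leave out 1 array: without DMSO replicate 2 or 3, any 1 of the simvastatin replicates, or simvastatin plus mevalonate replicate 1.

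Of 29 listed Notch pathway genes 27 were measured, since DLK1 belongs to that family of ligands. With simvastatin 1 rose (3.7%) and 6 fell (22.2%), and with mevalonate 4 rose (14.8%) and 2 fell (7.41%). Of all genes 5.98% rose and 7.38% fell with simvastatin, and 5.31% rose and 5.72% fell with mevalonate. JAG1, a canonical Notch ligand, fell by 0.57 ± 0.10 with simvastatin, and HEY1, a Notch target, by 0.58 ± 0.11, while JAG2 fell by 0.49 ± 0.06 with mevalonate. The count of 4 dropped to 1 without any 1 of the simvastatin plus mevalonate replicates. The count of 2 dropped to 1 without simvastatin replicate 3 or simvastatin plus mevalonate replicate 2 or 3. HEY1, at 0.45 ± 0.11 with mevalonate, was lost without simvastatin replicate 2 or 3 or any 1 of the simvastatin plus mevalonate replicates.

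Of 12 genes of thyroid hormone handling 3 were measured, and KLF9, a target of thyroid hormone, rose by 0.48 ± 0.10 with simvastatin and fell by 0.58 ± 0.10 with mevalonate. Its rise was lost without DMSO replicate 3. In none of these lists did a gene pass against DMSO when both compounds were given (limma), with 0 genes at an unadjusted p under 0.05 for the further non-coding RNAs and for thyroid hormone handling, 2 for the flanking and for the processing genes, 3 for the regulators and for the Notch pathway, and 4 for the other imprinted genes.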

How the data were processed

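The authors deposited log2 values per probeset for 9 arrays (53617 probesets). GCRMA and HOMER are named, without roles or versions, per the submitters' processing notes; no genome build is stated. Of the probesets, 16098 carry 1 gene symbol and the other 37519 do not. All 16098 matched RefSeq by Entrez identifier, which left 14884 genes, 779 of them with more than 1 probeset. The deposited values were kept as they were.

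One limma fit (version 3.58.1, R 4.3.3; lmFit and eBayes without trend, 6 residual and 2.39 prior degrees of freedom) gave the 3 group comparisons, with Benjamini-Hochberg adjustment over all genes and a threshold of 0.05. It was tested on simulated data. The number of arrays limits the precision. The members and lists were chosen with earlier results of these data known. Named were the coding genes, MEG3, every member called, the brightest and the most changed microRNAs of each class, and up to 3 called genes of each other list; members of seed and copy families, MIR376C, MIR487A and MIR485 among them, and the second probesets were named after their values were seen. Lists are described by counts and medians. Same-numbered arrays did not deviate together (r between -0.08 and 0.05 over 9 pairs), so no block was used. Alternatives covered normalization, centring, variance moderation, arrays, probesets and genes entered, the block, and leaving out each array.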

Additional observations from a re-analysis of the deposited data

How the results depend on the processing

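Across 18 alternatives the medians of the distal class kept their sign in all 3 comparisons. With simvastatin, members that rose (4) numbered 7 with trended, robust variance moderation, 2 with all probesets tested and 7 with centring on all microRNA genes (an alternative chosen after seeing the data), and 1 to 5 when single arrays were left out; members that fell (0) numbered 1 with the mean over probesets, and 0 to 1 when single arrays were left out. With mevalonate added, the 24 falls became 9 among genes above the probeset median (25 members tested), 14 with all probesets, and 14 to 25 when single arrays were left out. Against DMSO, the 1 fall became 5 with trended, robust moderation, 4 above the probeset median, 0 with only the 2 groups compared, 0 with all probesets, 0 with microRNA centring, and 0 to 2 when single arrays were left out. With the replicate number as a block, 6 members rose with simvastatin, 17 fell with mevalonate and 0 fell against DMSO; 7 of the 24 calls were lost (MIR134, MIR299, MIR379, MIR487B, MIR539, MIR544A and MIR889, adjusted p 0.0556 to 0.0682), and the causes were not tested. Above the probeset median the distal medians were 0.13 with simvastatin, -0.36 with mevalonate and -0.24 against DMSO, and -0.26 against DMSO with microRNA centring. Leaving out single arrays gave distal medians of 0.16 to 0.25, -0.52 to -0.46 and -0.34 to -0.25, and proximal medians of -0.0083 to 0.11, -0.26 to -0.19 and -0.16 to -0.08. RTL1 was at -0.0695 without simvastatin plus mevalonate replicate 1, and reversed with mevalonate to 0.0205 without simvastatin replicate 3 and to 0.0033 without simvastatin plus mevalonate replicate 3, and against DMSO to -0.0359 with the mean over probesets. Signal limits the dim microRNA probesets, since 26 of 41 distal ones lie below the median of all probesets.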
